A study of Mus musculus and Bos taurus with 6 samples.

Results

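The cluster of miR-322 (miR-424) and miR-503 is a group of miRNA hairpins that lie side by side on the X chromosome. Its members were taken from the deposited read counts by name, as every mouse or bovine miRNA called miR-322, miR-424, miR-503, miR-351, miR-450a, miR-450b or miR-542, on either arm of the hairpin. This gave 13 of the 1750 miRNA listed for mouse and 8 of the 1539 listed for bovine. The count table for bovine gives miR-542-3p under its mouse name, and holds no line for miR-351. All libraries came from unsorted tissue of animals in lactation. The mouse group consisted of 2 libraries of total RNA from abdominal mammary glands of primiparous FVB/N mice on day 12 of lactation. The AGO2 group consisted of 2 libraries of RNA that a monoclonal antibody to Argonaute 2 (AGO2), the protein that carries miRNA to their target mRNA, had pulled down from lysates of glands of the same strain and day. The methods name 2 mice whose left and right glands were taken, so the mouse and AGO2 libraries may share animals, which the tests do not take into account. The bovine group was 2 libraries from udder biopsies of multiparous Holstein cows in mid-lactation on a low-forage diet, each a pool of 2 cows. No library came from an involuting gland, and a precipitation with a control antibody was not analysed here. No allele or treatment was named for any group other than the antibody and the diet of the cows.

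A miRNA is cut from a hairpin whose 5′ arm and 3′ arm can each give a mature strand (5p and 3p), and nucleotides 2 to 8 of that strand, the seed, pair with the target mRNA. Mice carry the name miR-322 for what is called miR-424 in cattle and humans. In the mouse mammary gland the pair miR-322 and miR-503 is known for its rise during involution, the regression of the gland after weaning, where it has been tied to TGF-beta signalling and to BCL2 and IGF1R as targets. The 5p strands of miR-322 and miR-503 belong to the extended miR-15/16 family, which is known for restraining cell cycle genes.

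The sequences of the members that carry most of the reads or differ between groups are given below as deposited, with T in place of U, and the seed is in capitals. The prefix mmu- marks mouse and bta- bovine.
mmu-miR-322-5p: cAGCAGCAattcatgttttgga
bta-miR-424-5p: cAGCAGCAattcatgttttga
mmu-miR-503-5p: tAGCAGCGggaacagtactgcag
bta-miR-503-5p: tAGCAGCGggaacagtactg
mmu-miR-351-5p: tCCCTGAGgagccctttgagcctg
mmu-miR-450a-5p and bta-miR-450a: tTTTGCGAtgtgttcctaatat
mmu-miR-450b-5p: tTTTGCAGtatgttcctgaata
bta-miR-450b (5p): tTTTGCAAtatgttcctgaata
mmu-miR-450b-3p: aTTGGGAAcattttgcatgcat
mmu-miR-542-3p: tGTGACAGattgataactgaaa

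All 13 mouse sequences were identical to the RefSeq mature miRNA of the same name. Counted from the 5′ end with the mouse base first, miR-322-5p and miR-424-5p differed by G21A and by a listed length of 22 nt in mouse and 21 nt in bovine. For miR-503-5p the 20 nt listed in bovine matched the first 20 of the 23 nt listed in mouse. The miR-450a-5p sequence was the same in both species. For miR-450b-5p the 2 species differed by G8A, the last base of the seed, so that the seeds of this member were not the same.

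On the mouse genome (GRCm38) the 7 hairpins occupy 6353 bp of the minus strand of chromosome X, from 53047997 to 53054349 (GENCODE annotation). In the direction of transcription they run *Mir322* (53054255 to 53054349), *Mir503* (53053984 to 53054054), *Mir351* (53053255 to 53053353), *Mir542* (53049403 to 53049487), *Mir450-2* (53048299 to 53048367), *Mir450-1* (53048154 to 53048244) and *Mir450b* (53047997 to 53048078). The gap between *Mir322* and *Mir503* is 200 bp, that between *Mir351* and *Mir542* is 3767 bp, and the last 3 hairpins lie 54 and 75 bp apart. None of the hairpins overlaps an exon of another gene in GENCODE. The long non-coding RNA gene C430049B03Rik lies upstream of *Mir322* in GENCODE, from 53055046 to 53057190, whereas the RefSeq model of the same gene runs from 53053112 to 53057190 and contains 3 of the hairpins. The lincRNA gene Gm28730 (53051194 to 53053159) lies between *Mir351* and *Mir542*. The identical miR-450a-5p strand comes from both *Mir450-1* and *Mir450-2*, so its reads could not be assigned to either hairpin.

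**Figure D1:**
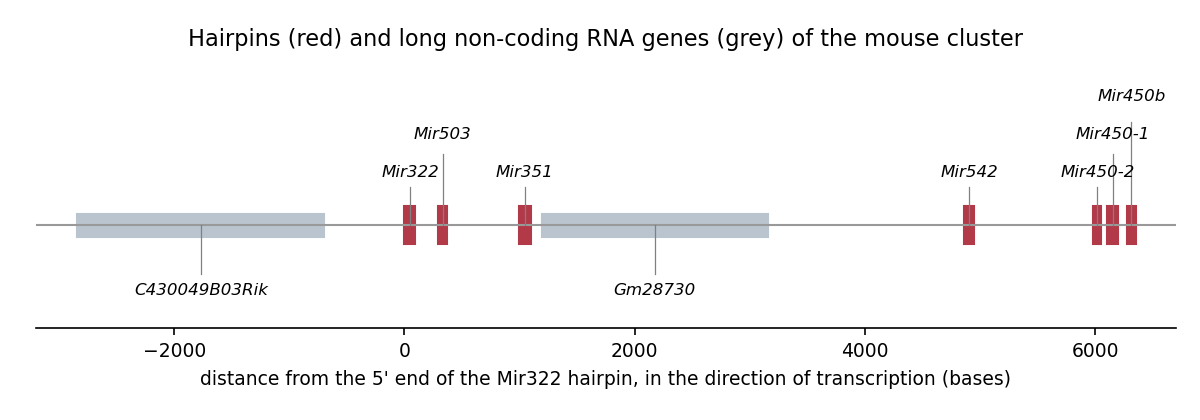
Position of the 7 mouse hairpins (red) and of the long non-coding RNA genes of the GENCODE annotation (grey) along the X chromosome, as the distance in bases from the 5′ end of *Mir322* in the direction of transcription. *Mir322*, *Mir503* and *Mir351* form one end of the cluster, and *Mir542* and the 3 *Mir450* hairpins the other, 3767 bp away from *Mir351*.

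The counts summed to 9299807 and 8391916 in mouse libraries 1 and 2, to 3909166 and 5041406 in AGO2 libraries 1 and 2, and to 9402483 and 10613807 in bovine libraries 1 and 2. Levels are given as RPM, the count relative to the sum of its library. A count of 0 allowed up to 3 counts, which is between 0.283 and 0.357 RPM in the libraries of total RNA and is 0.767 and 0.595 RPM in AGO2 libraries 1 and 2. Limits and intervals cover counting error only. As a check of the tissue label, all 5 epithelial miRNA of a fixed list (the miR-200 family and miR-205) were counted in every library, with summed levels from 76764 RPM in bovine library 1 to 365137 RPM in AGO2 library 2, and the 5 leukocyte miRNA summed to between 1263 and 3285 RPM. The summed epithelial level was higher in both AGO2 libraries (334535 and 365137 RPM) than in both mouse libraries (155444 and 181734 RPM), but the list was split, with miR-200a-3p (log2 fold change 1.58) and miR-141-3p (1.34) called higher, miR-200b-3p (-1.43) and miR-200c-3p (-1.71) called lower and miR-205-5p (0.26) not called in edgeR. The part of cell type makeup in the results below was not tested. In whole tissue, fewer cells of a type and less RNA per cell cannot be told apart.

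The cluster was led by the 5p strand of miR-322 or miR-424 in all 6 libraries, and miR-450a-5p was second. Together the members took 2112 and 3666 RPM in mouse libraries 1 and 2, 2307 and 2866 RPM in AGO2 libraries 1 and 2, and 2192 and 2179 RPM in bovine libraries 1 and 2. The 5p strand of miR-322 or miR-424 made up between 62.4% and 71.7% of these reads. The means were 2889 ± 1099 RPM in mouse, 2586 ± 395 RPM in AGO2 and 2186 ± 9.42 RPM in bovine (SD, n = 2 each). The mouse values overlapped those of AGO2 and those of bovine, while both AGO2 values lay above both bovine values. The sums cover 13 lines in mouse and AGO2 but 8 in bovine, so they are of unlike sets. In AGO2 library 1 miR-351-5p, which has no bovine line, took 227 RPM, more than the gap between that library and either bovine library.

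The level of miR-322-5p, the leading member, was 1369 and 2337 RPM in mouse libraries 1 and 2 and 1440 and 1839 RPM in AGO2 libraries 1 and 2. Its bovine counterpart miR-424-5p stood at 1571 and 1440 RPM in bovine libraries 1 and 2. The highest and the lowest of the 6 values were both from mouse, so the other libraries lay inside the mouse spread. Among all miRNA of a library it ranked from 52 (AGO2 library 2) to 71 (mouse library 1). The level of miR-450a-5p was 361 and 891 RPM in mouse, 514 and 700 RPM in AGO2 and 449 and 553 RPM in bovine libraries 1 and 2. Here too the mouse libraries held both extremes.

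The next members were miR-503-5p, a member of the extended miR-15/16 family, and miR-351-5p, which is found in rodents. In mouse libraries 1 and 2 miR-503-5p stood at 85.6 and 120 RPM (103.0 ± 24.7 RPM, SD, n = 2). The corresponding values for miR-351-5p were 118 and 64.7 RPM (91.4 ± 37.8 RPM). The 2 members did not differ beyond this spread. In the same libraries miR-450b-3p (74.1 ± 22.6 RPM), miR-322-3p (53.9 ± 4.40 RPM) and miR-542-3p (53.3 ± 22.4 RPM) followed, and neighbours in this order were within their spread. The remaining 6 mouse members lay below 20 RPM in every library. Among them miR-450a-2-3p reached 15.5 RPM in mouse library 2, and miR-351-3p had a count of 1 in mouse library 1 and 0 in the other 3 mouse and AGO2 libraries.

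**Figure D2:**
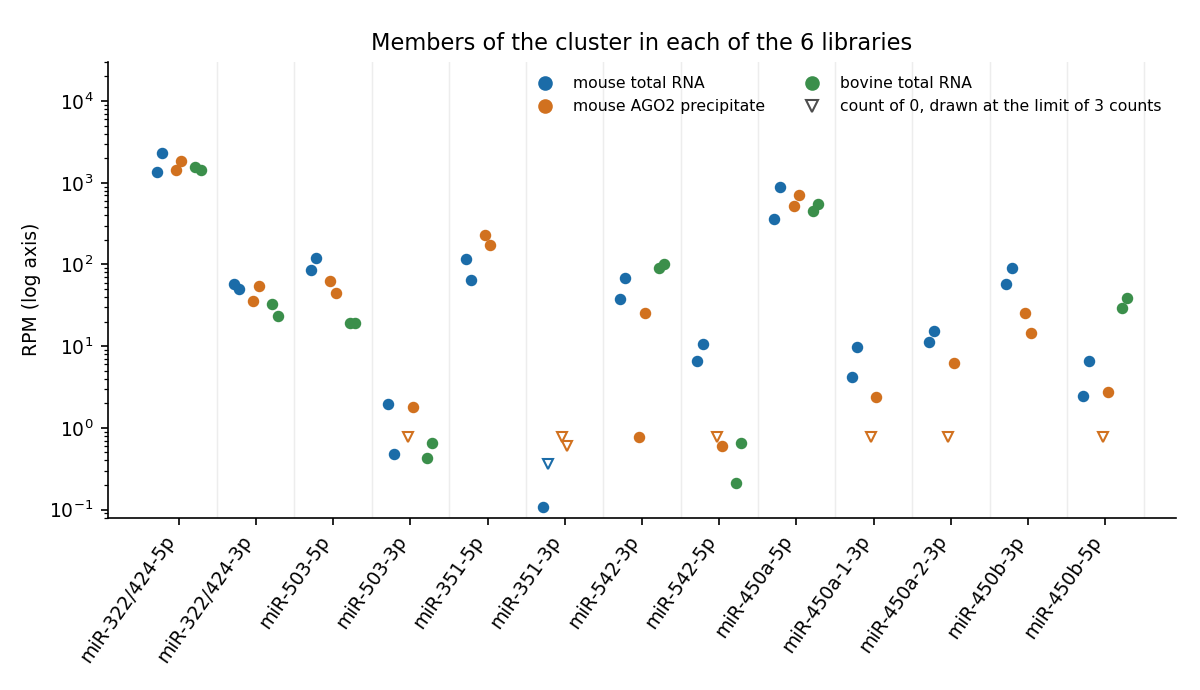
Level of each cluster member in RPM (log axis) in the 2 mouse, 2 AGO2 and 2 bovine libraries, with 1 point per library, and open triangles for a count of 0 drawn at the limit of 3 counts. The 5p strand of miR-322 or miR-424 stands highest at 1369 to 2337 RPM, and the bovine points stand below the mouse points for miR-503-5p and above them for miR-450b-5p.

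The members did not move together between the 2 mouse libraries. Mouse library 2 over library 1 gave a ratio of 2.47 for miR-450a-5p, 1.85 for miR-542-3p, 1.71 for miR-322-5p, 1.55 for miR-450b-3p and 1.41 for miR-503-5p. The ratio was 0.891 for miR-322-3p and 0.548 for miR-351-5p. The GC content of the mature sequence was 31.8% for miR-450a-5p and for miR-542-3p, and 62.5% for miR-351-5p. Over the 257 miRNA compared between these 2 libraries, the SD of the log2 ratio was 0.95 and its rank correlation with GC content was -0.49. These points share the same 2 libraries, and the correlation is given as a description. The same SD was 1.25 over 242 miRNA in AGO2 and 0.36 over 277 miRNA in bovine, so the bovine libraries were the closest pair. Each bovine library was a pool of 2 cows, so its spread is not of the same kind as that of the mouse libraries. The part of GC content in the members' differences was not tested.

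To see which members differed between the AGO2-miRNome and the mouse miRNome, edgeR was run on the 299 miRNA whose highest count over these libraries passed a minimum. Of these 27.8% passed an adjusted p of 0.05, with 15.4% (46 miRNA) higher and 12.4% (37 miRNA) lower in AGO2. Of the 13 members 7 were tested, and 0 of them passed. An unadjusted p under 0.05 was likewise found for 0 of the 7 in edgeR, beside 43.8% of all miRNA tested, and DESeq2 called 0 members, beside 39.1% of all miRNA (23.1% higher and 16.1% lower), with 2 members at an unadjusted p under 0.05. The log2 fold changes below are AGO2 over mouse after TMM normalisation, with the standard error.

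The RPM values of the leading strands and of miR-322-3p overlapped between the groups. For miR-322-5p the log2 fold change was -0.028 ± 0.57 (adjusted p = 0.971, edgeR), for its passenger strand miR-322-3p -0.100 ± 0.81 (adjusted p = 0.928, edgeR) and for miR-450a-5p 0.099 ± 0.65 (adjusted p = 0.9198, edgeR). The sign of all 3 turned under another normalisation, as DESeq2 size factors gave 0.063 for miR-322-5p and 0.011 for miR-322-3p, and library totals gave -0.040 for miR-450a-5p. Errors of this size do not show that these strands were equal in the groups.

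The remaining 4 members tested had RPM values that did not overlap between the groups, beside 73.2% of all miRNA tested. The only one on the higher side was miR-351-5p, at 227 and 174 RPM in AGO2 libraries 1 and 2 against 118 and 64.7 RPM in mouse, with a log2 fold change of 1.29 ± 0.64 (adjusted p = 0.127, edgeR). The lower side held miR-450b-3p, at 25.3 and 14.7 RPM in AGO2 against 58.2 and 90.1 RPM in mouse, with -1.76 ± 0.87 (adjusted p = 0.121, edgeR). It also held miR-503-5p, at 63.4 and 44.8 RPM in AGO2 against 85.6 and 120 RPM in mouse, with -0.79 ± 0.70 (adjusted p = 0.375, edgeR). None of these differences passed the test here. For miR-351-5p the adjusted p in DESeq2 was 0.0504, just above the limit. The study's own DESeq2 analysis of these libraries listed miR-351-5p as significantly enriched in AGO2, so its call depends on the procedure.

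The values of miR-542-3p, a 3p strand with no seed relative listed, were the most uneven of the 7. Its counts were 3 and 129 in AGO2 libraries 1 and 2 and 348 and 580 in mouse libraries 1 and 2, that is 0.767, 25.6, 37.4 and 69.1 RPM. The 95% Wilson interval of the first was 0.261 to 2.26 RPM. AGO2 library 1 stood far below the other 3. The log2 fold change was -1.82 ± 1.21 (adjusted p = 0.256, edgeR), and without AGO2 library 2 it became -5.88 (adjusted p = 0.000858, edgeR), so the call depended on which AGO2 library was kept. Its listed sequence ends in 3 A, and the libraries were built by adding a poly-A tail that the authors then removed, so the tail and these bases cannot be told apart in the reads. The minor strands were scarce in the same library, since AGO2 library 1 held a count of 0 for miR-503-3p, miR-351-3p, miR-450a-1-3p, miR-450a-2-3p, miR-450b-5p and miR-542-5p. In AGO2 library 2 these had counts of 9, 0, 12, 31, 14 and 3.

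Between species, 277 miRNA were matched by name, with miR-322 in mouse set against miR-424 in bovine. Of the 197 that passed the same minimum, 61.9% had an adjusted p under 0.05 in edgeR, with 31.5% (62 miRNA) higher and 30.5% (60 miRNA) lower in bovine. Of the 6 members tested 3 passed, 1 higher and 2 lower. An unadjusted p under 0.05 was found for 3 members, beside 65.5% of all miRNA tested. DESeq2 likewise called 1 higher and 2 lower, beside 32.5% and 31.0% of all (63.5% in either direction). The effect of species cannot be told apart from that of the RNA kit or of pooling. The same holds for parity (primiparous mice and multiparous cows), diet, the way tissue was taken, and the genome and miRNA list used for counting. Summed levels of some cell type markers differed as well. In bovine libraries 1 and 2 against mouse libraries 1 and 2, the summed epithelial level was 76764 and 78565 against 155444 and 181734 RPM, and the red cell level was 1454 and 868 against 12810 and 6432 RPM. The endothelial marker stood at 38701 and 30592 against 16270 and 20468 RPM, and the fibroblast level at 8276 and 8582 against 2789 and 5084 RPM. The epithelial list was split in edgeR, with miR-200a-3p (log2 fold change -3.24), miR-200b-3p (-1.45) and miR-141-3p (-1.14) called lower and miR-205-5p (2.06) called higher. Not called were miR-200c-3p (0.84) and the fibroblast miRNA miR-199a-3p (0.70) and miR-214-3p (0.75). The leukocyte list was split too. The summed smooth muscle levels overlapped, but the members of that list were not alike. Not called was miR-143-3p (-0.42), whereas miR-145 stood at 6434 and 6064 RPM in bovine against 2289 and 1772 RPM in mouse libraries 1 and 2. The part of cell type makeup in the members' differences was not tested. The median log2 fold change of all 197 was 0.079 after TMM normalisation and 0.63 with library totals, where 77 were higher and 42 lower.

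Among the 6 members tested, the largest log2 fold change after TMM normalisation was that of miR-503-5p, at 19.1 and 19.2 RPM in bovine libraries 1 and 2 against 85.6 and 120 RPM in mouse. Both bovine values lay far below both mouse values. It fell by 2.82 on the log2 scale, with a standard error of 0.43 (adjusted p = 0.00113, edgeR), and it passed in each of the 10 alternatives, with values between -3.18 and -2.28. It was not the largest everywhere, since with library totals miR-450b-5p stood at 3.04, and members tested only with no filter (miR-542-5p, -4.65) or with any species prefix (miR-450b-3p, -5.38) went further. The bovine sequence listed is 3 nt shorter at its 3′ end, and the part of this in the counts was not tested.

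The other lower member was the passenger strand miR-424-3p, at 32.8 and 23.3 RPM in bovine against 57.0 and 50.8 RPM for miR-322-3p in mouse. The log2 fold change was -1.36 ± 0.41 (adjusted p = 0.0221, edgeR). With library totals it was -0.80 (adjusted p = 0.124, edgeR), and the call was also lost without bovine library 1 (-1.58, adjusted p = 0.149, edgeR) and without bovine library 2 (-1.26, adjusted p = 0.217, edgeR). Higher in bovine was miR-450b-5p, the strand whose seed differs between the species, at 29.1 and 38.8 RPM against 2.47 and 6.67 RPM in mouse. It passed the minimum count through the bovine libraries alone, with counts of 274 and 412 there against 23 and 56 in mouse. At its mouse level in both species it would not have been tested. With no filter it was also called higher, at 2.46 (adjusted p = 8.35e-05, edgeR). Its log2 fold change was 2.51 ± 0.58 (adjusted p = 0.00709, edgeR), and 2.09 without bovine library 2 (adjusted p = 0.0791, edgeR).

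The leading strands did not pass the test. For miR-424-5p over miR-322-5p the log2 fold change was -0.70 ± 0.38 (adjusted p = 0.150, edgeR), and for miR-450a-5p it was -0.71 ± 0.50 (adjusted p = 0.249, edgeR), each with overlapping RPM values. Both depended on the mouse libraries. Without mouse library 1 both passed, at -1.17 (adjusted p = 0.00246, edgeR) and -1.35 (adjusted p = 0.00402, edgeR), whereas miR-450a-5p stood at 0.060 without mouse library 2. The level of miR-542-3p was 90.4 and 102.6 RPM in bovine against 37.4 and 69.1 RPM in mouse, without overlap, with a log2 fold change of 0.46 ± 0.45 (adjusted p = 0.387, edgeR). Its sign turned to -0.045 without mouse library 1, and it passed at 0.95 without mouse library 2 (adjusted p = 0.00856, edgeR). In all, 4 of the 6 members had RPM values that did not overlap between the species, beside 81.2% of all miRNA tested.

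**Figure D3:**
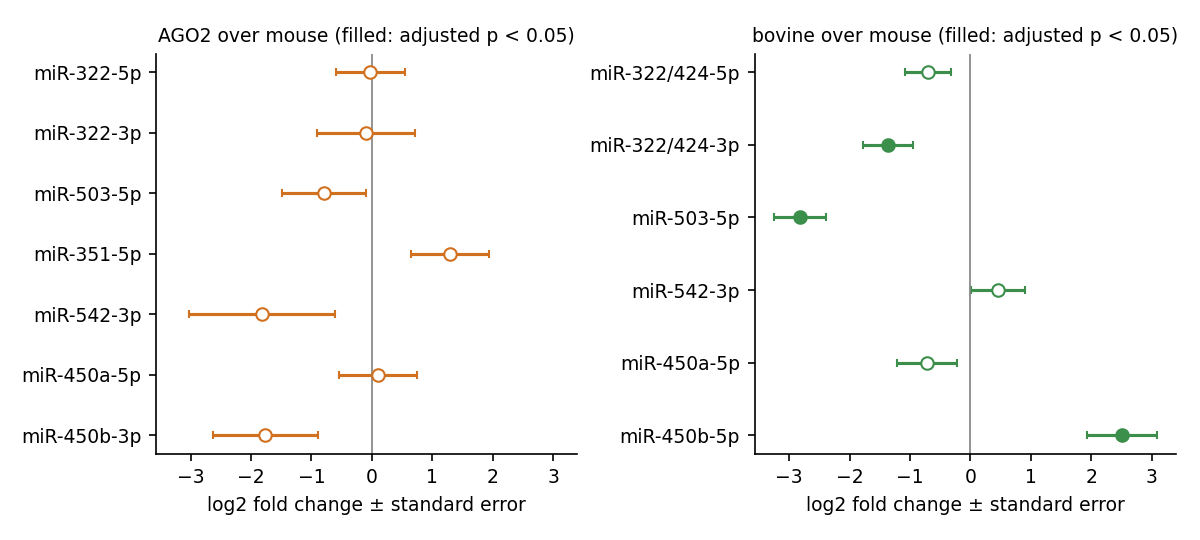
Log2 fold change with its standard error from edgeR for the 7 members tested in AGO2 over mouse (left) and the 6 tested in bovine over mouse (right), with filled points for an adjusted p under 0.05. No point is filled on the left, and miR-424-3p over miR-322-3p (-1.36), miR-503-5p (-2.82) and miR-450b-5p (2.51) are filled on the right.

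Both comparisons share the mouse libraries. Ratios of members within a library do not depend on the scaling between libraries, and they set some pairs of neighbours apart. The ratio of miR-322-5p (miR-424-5p) to miR-450a-5p was between 2.60 and 3.795 in all 6 libraries, and the 3 groups overlapped. In contrast, the ratio of miR-322-5p to miR-503-5p, whose hairpins lie 200 bp apart in mouse, was 15.99 and 19.4 in mouse libraries 1 and 2 and 22.7 and 41.0 in AGO2. That of miR-424-5p to miR-503-5p was 82.1 and 74.9 in bovine. No 2 of the 3 groups overlapped in this ratio, but how often this holds for other pairs of miRNA was not computed. Between mouse and AGO2 the ratio of miR-322-5p to miR-351-5p did not overlap either, at 11.6 and 36.1 in mouse and 6.33 and 10.6 in AGO2. The ratio of miR-450a-5p to miR-450b-5p was 146 and 134 in mouse and 15.4 and 14.3 in bovine.

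The arm that took the reads was the 5p arm for miR-322, miR-503, miR-351 and miR-450a, and the 3p arm for miR-542. For miR-322 the 5p share of the reads of both arms was 96.0% and 97.9% in mouse, 97.6% and 97.2% in AGO2 and 98.0% and 98.4% in bovine libraries 1 and 2. For miR-351 it was at least 99.9% in the 4 libraries where it was counted. For miR-503 it lay between 96.2% and 100% in all 6 libraries, without a split between the groups. For miR-450a, taking both of its 3p strands together, the share was 95.9% and 97.2% in mouse and 100% and 98.8% in AGO2, higher in both AGO2 libraries. The difference of means was 2.82 percentage points (two-sided exact permutation test, p = 0.3333, the smallest p that 2 against 2 libraries can give).

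The hairpins of miR-542 and miR-450b are shown because their arms differed between groups, as RefSeq gives them for GRCm38, with U and with both mature strands in capitals.
Mir542: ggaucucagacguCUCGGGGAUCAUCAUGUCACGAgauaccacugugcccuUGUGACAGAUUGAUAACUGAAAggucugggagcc
Mir450b: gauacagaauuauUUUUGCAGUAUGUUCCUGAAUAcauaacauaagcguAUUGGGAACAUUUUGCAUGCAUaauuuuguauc

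For miR-542 the 5p strand held 15.1% (95% Wilson interval 11.98 to 18.9%) and 13.2% (10.8 to 15.95%) of the reads of both arms in mouse libraries 1 and 2. In bovine libraries 1 and 2 it held 0.235% (0.0644 to 0.852%) and 0.639% (0.310 to 1.31%), that is 2 and 7 counts, and the intervals stood apart from those of mouse. In AGO2 library 2 it held 2.27% (0.776 to 6.47%), and AGO2 library 1 had only 3 counts for both arms. The difference from mouse was -13.7 percentage points in bovine (two-sided exact permutation test, p = 0.3333, the smallest possible). The 5p strand is listed 1 base further along the hairpin in bovine than in mouse, with 0 mismatches over the 21 bases the 2 listed sequences share.

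For miR-450b the arms changed places. In mouse the 3p strand held most of the reads, and the 5p share was 4.08% (2.73 to 6.04%) and 6.90% (5.35 to 8.85%) in libraries 1 and 2. The AGO2 values were 0% of 99 counts, which allows up to 3.74%, and 15.9% (9.72 to 24.95%) of 88 counts, so AGO2 lay on both sides of mouse. In bovine the 5p strand had counts of 274 and 412, and the 3p strand was found just outside the naming rule, as a sequence known in horse (miR-450b-3p) with counts of 11 and 40. With this line the 5p share in bovine was 96.1% (93.2 to 97.8%) and 91.2% (88.2 to 93.4%). The horse sequence is listed 1 base further along than the mouse miR-450b-3p and differs from it at 1 of the 21 bases shared. Mouse miR-450b-3p and miR-450a-1-3p differ only by A19G and A20C, near the 3′ end (miR-450a-1-3p base first), and reads shortened there could have been counted for either, which makes the mouse 3p counts of both uncertain.

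**Figure D4:**
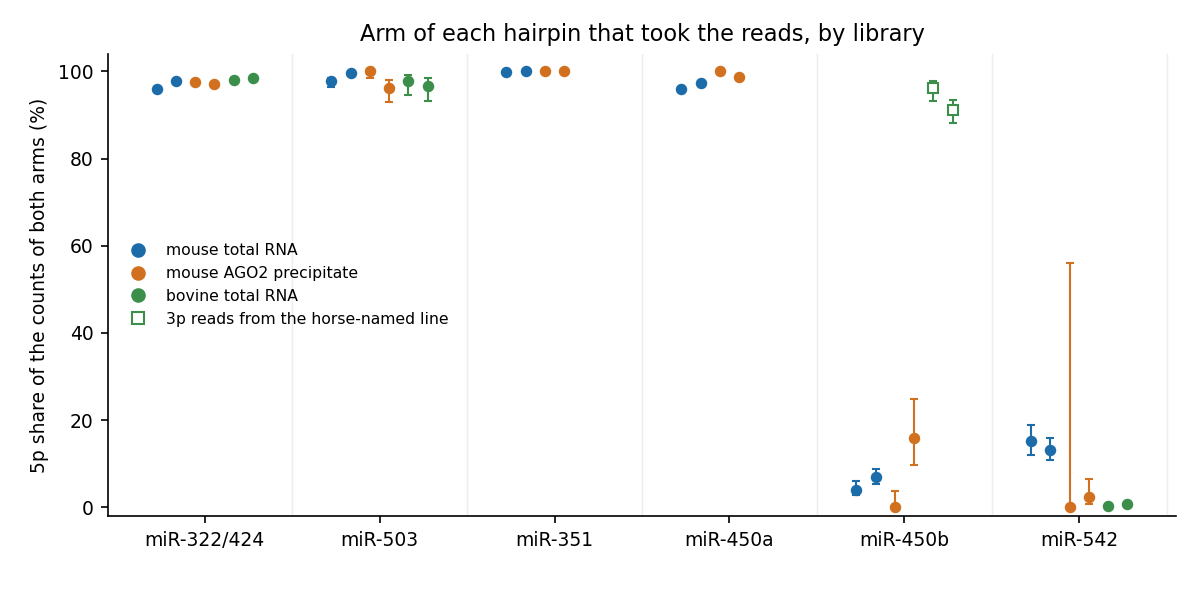
Share of the 5p strand in the reads of both arms of each hairpin (%), with 1 point per library and 95% Wilson intervals for counting error, where open squares mark bovine shares that take the 3p reads from the line named after horse. The miR-450b points lie between 0% and 15.9% in mouse and AGO2 and at 96.1% and 91.2% in bovine, and the wide interval of miR-542 belongs to AGO2 library 1 with its 3 counts.

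The seed of miR-322-5p and miR-424-5p (AGCAGCA) is shared with miR-15a, miR-15b, miR-16, miR-195 and miR-497, which lie outside the cluster. The sequences of 3 of these relatives in mouse are given for comparison, with the seed in capitals.
mmu-miR-16-5p: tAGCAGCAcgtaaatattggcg
mmu-miR-15b-5p: tAGCAGCAcatcatggtttaca
mmu-miR-497-5p: cAGCAGCAcactgtggtttgta

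Summed, these relatives stood at 26712 and 20378 RPM in mouse libraries 1 and 2, at 13782 and 8618 RPM in AGO2 and at 52559 and 51448 RPM in bovine. The cluster therefore supplied a minor share of the reads with this seed, 4.87% and 10.3% in mouse libraries 1 and 2, 9.46% and 17.6% in AGO2 and 2.90% and 2.72% in bovine. Mouse and AGO2 overlapped (two-sided exact permutation test, p = 0.667), and both bovine libraries lay below the others (p = 0.3333 against mouse, exact permutation test, the smallest possible). The most abundant relative was miR-16-5p, at 14407 and 10996 RPM in mouse and 6701 and 4370 RPM in AGO2. In AGO2 over mouse, 5 relatives were tested with edgeR and 0 passed, with 2 at an unadjusted p under 0.05 and 1 called lower by DESeq2. Their median log2 fold change was -0.90, beside -0.12 over all 299 miRNA tested. In bovine over mouse, only miR-15a-5p, miR-15b-5p and miR-497-5p could be matched by name and tested. Of these 3, 0 passed in edgeR and in DESeq2 and 0 had an unadjusted p under 0.05. Their median in edgeR was 0.079, that of all miRNA tested. Listed under other names in bovine, miR-16 and miR-195 were not tested. There miR-16a stood at 25514 and 26865 RPM, miR-16b at 5908 and 5968 RPM and miR-195 at 7370 and 6572 RPM. In mouse miR-16-5p stood at 14407 and 10996 RPM and miR-195a-5p at 1530 and 1143 RPM.

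**Figure D5:**
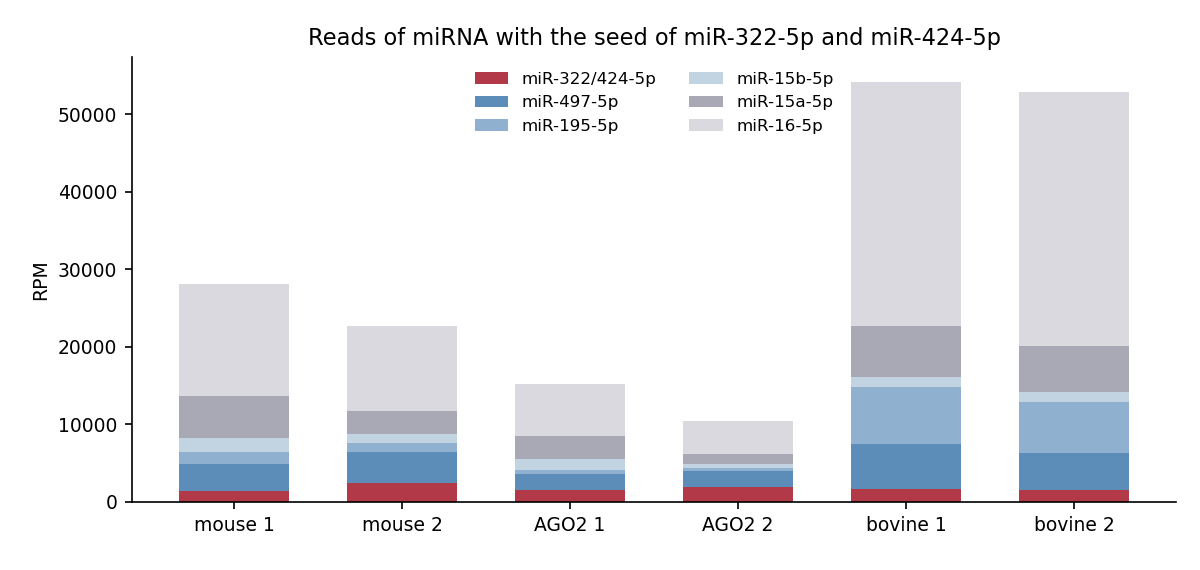
RPM of the miRNA that share the seed of miR-322-5p and miR-424-5p in each library, stacked, with the cluster member in red and its relatives in other colours (bovine miR-16a and miR-16b are summed as miR-16). The red part takes 2.72% to 17.6% of a bar, and the bars are tallest in bovine.

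The seed of miR-503-5p (AGCAGCG) differs from that of miR-322-5p by A8G alone, and no other miRNA listed in the mouse or bovine tables had it. With a seed of nucleotides 2 to 7, miR-503-5p joined the group of miR-322-5p, and the share of both in it was 5.16% and 10.8% in mouse, 9.84% and 17.9% in AGO2 and 2.94% and 2.76% in bovine. The strands miR-450a-5p, miR-450b-5p and miR-542-3p were likewise the only listed carriers of their seeds.

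The seed of miR-351-5p (CCCTGAG) is that of miR-125a-5p and miR-125b-5p, and it held 3.59% and 7.15% of the reads with this seed in mouse and 5.12% and 5.91% in AGO2 libraries 1 and 2. The AGO2 shares lay between those of the mouse libraries (two-sided exact permutation test, p = 1). The fold changes of the relatives in AGO2 over mouse were 0.88 and 1.00 on the log2 scale, near the 1.29 of miR-351-5p, and 0 of the 2 passed in edgeR or DESeq2, with 0 at an unadjusted p under 0.05. In bovine, where no line for miR-351 is listed, the 2 relatives took all reads with this seed, 9274 and 10090 RPM in libraries 1 and 2 against 3290 and 905 RPM for the whole seed group in mouse. Of these relatives 1 was higher in bovine in edgeR, with a log2 fold change of 2.53 (adjusted p = 0.00739), and both were in DESeq2.

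Over the 6 libraries, the pattern of miR-322-5p (miR-424-5p) was compared with that of 163 matched miRNA as the root mean square difference of log2 TMM-normalised CPM, centred on each miRNA's mean. The closest were miR-455-5p (0.184), miR-148b-3p (0.201), miR-450a-5p (0.219), miR-194-5p (0.225) and miR-132-3p (0.288). Of the cluster, miR-450a-5p thus had rank 3 and miR-322-3p rank 10 (0.426), whereas miR-503-5p had rank 64 (0.924) and miR-542-3p rank 148 (2.30). The place of miR-542-3p rested on AGO2 library 1 with its 3 counts, and without that library it had rank 54 (0.837), ahead of miR-503-5p at rank 67 (0.967). With each of the 6 libraries left out in turn, miR-450a-5p had ranks from 2 to 7 and miR-503-5p from 50 to 83. The strand of *Mir503*, the hairpin nearest to *Mir322*, was thus further from it in pattern than that of *Mir450-1* and *Mir450-2*. These differences rest on 6 libraries of 3 kinds and are given as a description.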

How the data were processed

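The deposited values were raw counts per mature miRNA. Before deposit the authors trimmed poly-A, selected lengths of 17 to 28 nt and quantified the reads with miRDeep2 against miRBase 20 precursors and predicted precursors (score above 0). A second deposited column of normalised values and the lists of predictions were not used. The authors mapped reads to GRCm38 and UMD3.1. The members and lists were chosen with earlier results of these data known. All members were named, with seed relatives of at least 100 RPM and the 5 miRNA closest in pattern to miR-322-5p. RPM were computed over each library's sum. Counts were tested across all miRNA with edgeR 4.0.16 (R 4.3.3; TMM, quasi-likelihood F test, Benjamini-Hochberg adjustment, count above 175 in at least 1 library), and the standard error was the log2 fold change divided by the square root of F. Shares were compared by exact permutation (SciPy 1.17.1), with 95% Wilson intervals. The procedure was tried on simulated counts with a set dispersion and large changes only, which cannot show how it performs on these libraries. Alternatives were DESeq2 1.42.0, its size factors, library totals, no filter, 100 RPM, any species prefix in matching, other totals for RPM, a shorter seed and each library left out. A replicate block, and the pattern distances without each library, were added after seeing the data. Labels carry no replicate numbers, so numbers 1 and 2 follow the order of deposition. RefSeq and GENCODE annotations of GRCm38 were used, and no bovine annotation. In edgeR a difference between groups was set against a variance estimated in part from all miRNA tested. With 2 libraries a group this variance is poorly known, and the exact permutation test can give only a few p-values.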

Additional observations from a re-analysis of the deposited data

How the results depend on the processing

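The labels give no replicate numbers, but the study's tables number the 2 libraries of each group (taken here to follow the order of deposition, which no label states), and the mouse and AGO2 groups may share mice. With that number as a replicate block, chosen after seeing the data, 60 miRNA were higher and 61 lower in AGO2, and 0 of the 7 members passed. The block gave 0.016 for miR-322-5p, 1.34 for miR-351-5p (adjusted p = 0.0582, edgeR) and -3.07 for miR-542-3p (adjusted p = 0.105, edgeR). The differences of library 2 from library 1 in mouse and AGO2 had a correlation of 0.22 over 299 miRNA, which are not independent, and with only 2 pairs this does not show that the numbers mark the same animals. Leaving out a library leaves 1 in its group, which is then assumed to vary like the other group. In AGO2 over mouse, the count of higher miRNA (46) was 29 with no filter, 69 in DESeq2 and 31 to 62 with a library left out. The count of lower miRNA (37) ranged from 21 (without mouse library 1) to 33 with a library left out, and was 23 without AGO2 library 1. Among members not called, the sign of miR-322-3p turned (DESeq2 and its size factors 0.011, with a library left out -0.36 to 0.54), as did that of miR-322-5p (100 RPM 0.028, DESeq2 and its size factors 0.063, with a library left out -0.39 to 0.51) and of miR-450a-5p (library totals -0.040, with a library left out -0.43 to 0.90). In bovine over mouse, the count of higher miRNA (62) was 41 at 100 RPM and 28 (without bovine library 2) to 75 with a library left out, and that of lower miRNA (60) was 24 (without bovine library 2) to 74, with 30 without bovine library 1. The sign turned for miR-450a-5p (-1.35 without mouse library 1 to 0.060 without mouse library 2) and miR-542-3p (-0.045 without mouse library 1 to 0.95 without mouse library 2). Using no filter added miR-542-5p and matching under any prefix added miR-450b-3p, both lower. With TMM library sizes the bovine sum of the members was 1808 and miR-424-5p 1244 CPM, in place of 2186 and 1506 RPM. The cause was not tested. Of the counts, sums and shares under all alternatives, 114 values stayed within their limits and 10 moved. For sums and shares the limit was the SD of the group. With 2 libraries a group, leaving out either gives a value that always lies within this SD, so these values could not move. Adding other species prefixes brought no reads to the arm shares counted here. The 114 is therefore not a measure of stability. Of the members' fold changes 103 kept direction and call, 14 changed sign, 4 gained a call and 4 lost it. Low counts in AGO2 library 1 limit what can be said of the minor strands.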
